A study of Mus musculus with 4 samples.

Results

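The genes described here decide whether a cell dies by apoptosis: the Bcl2 family, the caspases and the receptors, adaptors and inhibitors around them. They were measured in neural stem cells from Olig1 knockout (KO) and wild-type (WT) mouse embryos. Of 38 genes listed, 35 had at least 1 probe set that the platform annotation gave to that gene alone, and these came to 76 of the 20380 probe sets with 1 gene. Bax and Ripk1 had none in the table used here. Bnip3l shared its 3 probe sets with a pseudogene and was left out of the comparison.

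The cells were taken at embryonic day 14.5 from the ganglionic eminences, where forebrain interneurons and the earliest oligodendrocyte precursors are born. They were on the C57/Bl6 background and grew in serum-free medium with EGF. There were 3 arrays labelled Olig1 KO and 1 labelled wild type. The titles number the KO replicates 2 and 3 as 37 and 38, and replicate 1 has no number. The labels name neither the structure of the Olig1 allele nor whether it is present in all cells, and they do not state whether each sample was its own embryo or culture, or whether animals were pooled. The p-values therefore rest on the spread over the 3 KO arrays, part of which may be technical. The spread is not all technical, because the sex-linked genes given below set KO replicate 1 apart from KO replicates 2 and 3. The p-values hold no measure of the spread among WT samples. With 1 WT array, a difference between genotypes and a difference between that sample and the others cannot be told apart.

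Apoptosis runs along 2 routes that meet at the caspases, proteases that dismantle the cell. In the mitochondrial route, BH3-only proteins sense damage and relieve the block that Bcl2 and its relatives place on Bax and Bak1, which open the outer mitochondrial membrane and release cytochrome c. In the receptor route, ligands such as TNF engage death receptors whose adaptors recruit caspase 8. Apoptosis removes progenitors and young neurons in the embryonic forebrain, and neural stem cells need members of the Bcl2 family such as Mcl1 to survive.

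In sex-linked genes and ribosomal RNA the arrays paired across the genotypes. The Olig1 probe set gave a signal of 3840, 4438 and 8548 in KO replicates 1, 2 and 3, against 7618 in the WT array, so it does not check the labels, which are used as given. KO replicate 1 shared with the WT array high Xist (8472 and 9480) and low 18S ribosomal RNA (7.24 and 4.64). KO replicates 2 and 3 had low Xist (160.9 and 46.5), high Y-linked Eif2s3y (654 and 1160, against 0.608 in the WT array) and 18S signals of 946 and 2823. The spiked-in control probe sets had a median ratio to the WT array of 0.90, 1.89 and 2.75 in KO replicates 1, 2 and 3. The beta-actin 3'/5' ratio, a sign of RNA integrity, was 1.251, 1.30 and 1.82 in KO replicates 1, 2 and 3, against 1.11 in the WT array. The same ratio for Gapdh was 0.79, 1.03 and 0.84, against 0.76, highest in KO replicate 2. Of 14 measured neural stem cell markers, 12 were above background in all arrays, while Gsx2, the eminence transcription factor, was above it in none. Of 14 microglia and macrophage markers, 3 were above background in all arrays and 5 in none, and their summed signal was 532, 735 and 622 in the KO arrays, against 537 in the WT array. None of 8 endothelial markers was above background in all arrays. Of 9 astrocyte markers, 8 were above background in all arrays, as were 6 of 13 neuron and 7 of 10 oligodendrocyte lineage markers. The summed astrocyte signal was 8726, 5551 and 6372 in KO replicates 1, 2 and 3, against 10950 in the WT array. For neuron markers it was 2857, 2121 and 2509, against 3622. The stem cell and oligodendrocyte lineage sums lay on both sides of WT. Background here is the highest signal, in the same array, of 27 bacterial control probe sets, which was 21.3, 39.99 and 87.8 in KO replicates 1, 2 and 3, against 30.5 in the WT array.

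Promoter sequences are shown for 3 members whose patterns stand out below: Tnfrsf1a, similar in all KO arrays and apart from WT, Mcl1, split along the array pairs, and Cycs, whose direction depended on scaling. Each runs 5′ to 3′ on the strand of the gene, from 250 bases before to 50 bases after the start, and was read from RefSeq's GRCm38.p6 annotation. Capitals mark 3 motifs searched on both strands: the E-box CANNTG, bound by basic helix-loop-helix factors such as the Olig proteins, the cAMP response element TGACGTCA, and GCATGCGC, a core of the nuclear respiratory factor 1 motif. The Tnfrsf1a window lies at chr6:125349473-125349772 on the plus strand, that of Mcl1 at chr3:95658471-95658770 on the plus strand and that of Cycs at chr6:50566520-50566819 on the minus strand.
Tnfrsf1a: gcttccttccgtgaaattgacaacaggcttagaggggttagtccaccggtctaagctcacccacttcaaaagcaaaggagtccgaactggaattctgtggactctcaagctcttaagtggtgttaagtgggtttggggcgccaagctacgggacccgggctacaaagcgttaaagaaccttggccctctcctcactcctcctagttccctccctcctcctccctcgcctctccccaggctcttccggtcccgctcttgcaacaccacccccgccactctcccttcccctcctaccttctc
Mcl1: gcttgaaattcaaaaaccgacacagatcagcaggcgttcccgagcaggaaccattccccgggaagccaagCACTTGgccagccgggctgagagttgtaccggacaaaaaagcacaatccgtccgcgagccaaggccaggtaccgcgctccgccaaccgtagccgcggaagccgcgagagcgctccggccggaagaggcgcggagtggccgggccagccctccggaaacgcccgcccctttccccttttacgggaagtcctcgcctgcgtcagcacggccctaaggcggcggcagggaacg
Cycs: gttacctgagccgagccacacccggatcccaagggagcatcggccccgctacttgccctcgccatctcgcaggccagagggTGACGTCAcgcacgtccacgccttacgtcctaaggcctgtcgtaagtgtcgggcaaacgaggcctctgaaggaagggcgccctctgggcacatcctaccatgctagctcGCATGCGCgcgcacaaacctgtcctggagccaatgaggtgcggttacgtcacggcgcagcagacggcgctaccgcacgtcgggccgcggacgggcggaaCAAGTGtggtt

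The Tnfrsf1a window held none of the 3 motifs, that of Mcl1 held 1 E-box, and that of Cycs held 1 of each motif, with no overlap between them. Promoter windows were given for 33 of the 38 genes, 45 windows in all. An E-box stood in 30 of them (66.7%), against 72.3% of 32851 promoter windows of the same length. The cAMP response element was in 2 of the 45 windows (4.44%), those of Birc2 and Cycs, against 1.79% of all windows. The respiratory factor core was in 4 (8.89%), those of Aifm1, Bax, Cycs and Fadd, against 2.71%. These are matches of letters and say nothing of binding.

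No difference between KO and WT was called for any cell death gene. In bulk RNA, fewer cells of a type and less RNA per cell cannot be told apart. After the 40% of genes with the lowest mean signal were left out, 26 of the 35 measured members remained among 7436 genes. In limma, 0 of the 26 had an adjusted p under 0.05 (each 0.99997), against 0% of the genes tested, and 0 had an unadjusted p under 0.05, against 2.26% of all genes. All 3 KO arrays lay above the WT array for 4 members (15.4%), Bcl2, Bok, Birc2 and Tnfrsf1a, against 23.2% of all genes. They lay below it for 4 (15.4%), Bcl2l1, Aifm1, Htra2 and Parp1, against 20.6%. The median log2 difference of the members, KO minus WT, was 0.077, against -0.00014 over all genes, and in the single KO replicates 1, 2 and 3 it was -0.026, 0.14 and 0.18. For 0 of the 26 did the WT array lie at least 2-fold outside all KO arrays, against 0.282% of all genes. In simulated data with the same numbers of arrays and 7436 genes, 0.4% of genes raised by 1 log2 unit were recovered and 32.5% of those raised by 2. The simulated noise was independent between arrays and held no array pairs, so recovery in the real arrays may differ.

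**Figure D1:**
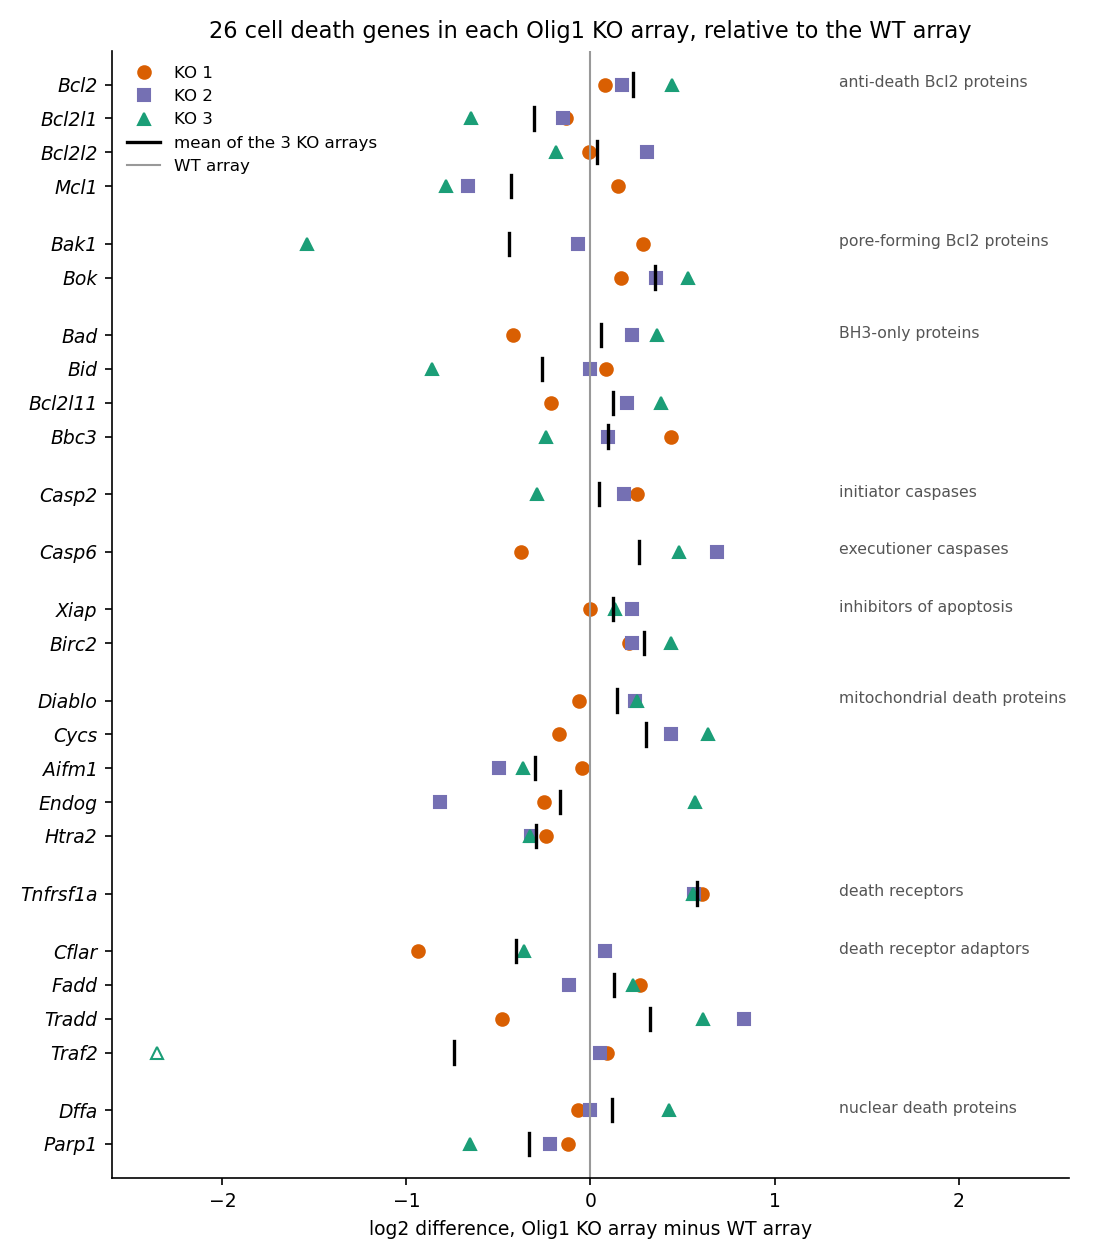
Log2 difference of each Olig1 KO array from the WT array for the 26 cell death genes kept, grouped by role, with symbols for the 3 KO arrays, a black bar for their mean and the WT array at 0. For 18 of the 26 genes the KO arrays fall on both sides of the WT array, and KO 3 lies far below the other arrays for Bak1 (-1.54) and Traf2, whose open symbol marks a signal at background and so only a bound.

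Among the 26 genes kept, Tnfrsf1a had the smallest SD over the KO arrays and all of them above WT. It encodes the main receptor for TNF, which can signal through NF-kappaB or toward death. Its probe set gave 949, 922 and 919 in KO replicates 1, 2 and 3, against 619 in the WT array. All KO arrays were higher than WT, and they lay close together. The log2 difference was 0.58 (SE 0.30, limma unadjusted p = 0.094, adjusted p = 0.99997, n = 3 KO arrays and 1 WT array), rank 355 of 7436 by p. The SD of the 3 KO arrays, 0.025 on the log2 scale, was at percentile 0.83 of all genes. Tnfrsf1a was 1 of 3 members, with Birc2 and Htra2, whose difference exceeded the whole range of the KO arrays (11.5%, against 16.9% of all genes). In the pair alike in Xist, KO replicate 1 and WT, its log2 difference was 0.61. Under quantile normalization the 3 KO differences were 0.57, 0.62 and 0.66. Tnfrsf10b, the mouse receptor for TRAIL, was left out by the filter on low signals. Its probe sets gave 60.4, 66.8 and 37.3, against 49.6, and 36.5, 73.3 and 4.67, against 80.0, in KO replicates 1, 2 and 3 and the WT array. In KO replicate 3, and in no other array, these signals did not exceed background. The second of these probe sets carries Affymetrix's mark for a sequence shared by several transcripts.

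Adaptors of the receptors showed no common direction. Tradd, which links the TNF receptor to its kinases and ligases, gave 77.4, 214 and 181 in KO replicates 1, 2 and 3, against 114 in the WT array. KO replicate 1 was the lowest array and KO replicates 2 and 3 the highest, so the mean log2 difference of 0.32 (SE 0.52) had no single direction behind it. Its other probe set gave 87.9, 35.4 and 96.1, against 103, and was at background in KO replicate 2. Traf2, an adaptor and ligase of the same complex, gave 209.7, 204 and 26.7, against 196. The first 2 KO arrays were close to WT and KO replicate 3 was at background, so that its log2 difference is known only as a bound, -1.04 or lower. The fitted mean of -0.74 (SE 0.90) was -0.30 with KO replicate 3 set at its background and 0.070 without that array, which decided the sign. Fadd, the adaptor that brings in caspase 8, gave 324, 244 and 314, against 266, and the WT array lay inside the KO range. Cflar encodes c-FLIP, which blocks caspase 8 at the receptor. Its main probe set gave 115, 247 and 178, against 233, lower on average by log2 -0.41 (SE 0.43), though KO replicate 2 was above WT. Among the remaining probe sets above background in all arrays, 1 differed by -0.30 and another by 0.31, so its direction depended on the probe set.

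**Figure D2:**
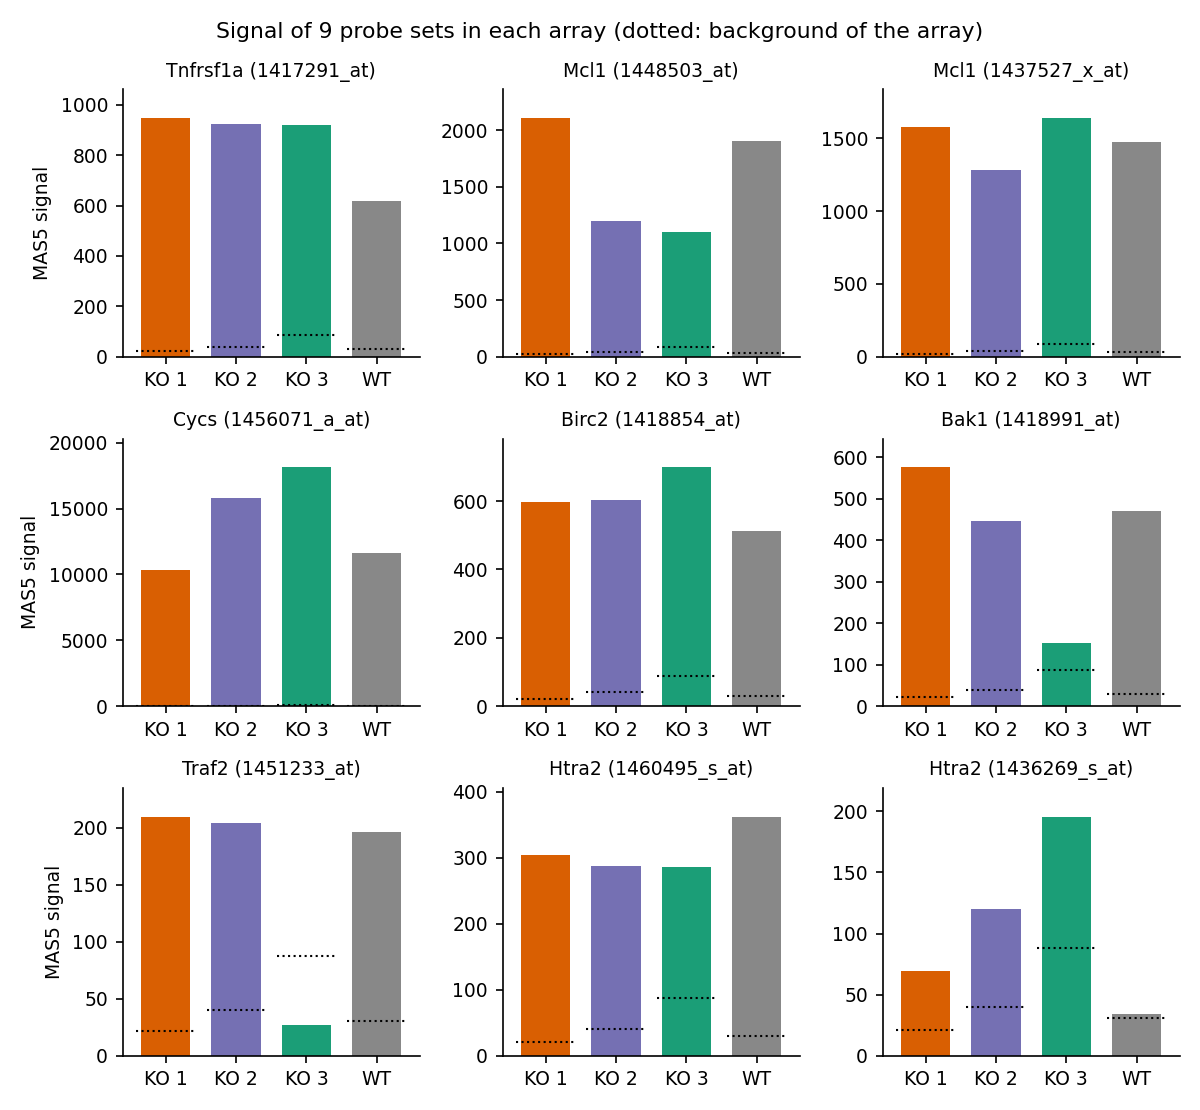
MAS5 signal of 9 probe sets of 7 cell death genes in KO replicates 1, 2 and 3 and in the WT array, 1 bar per array on a linear axis from 0, with a dotted line at the background of that array. Tnfrsf1a is level over the KO arrays at 919 to 949, 1 Mcl1 probe set is low in KO 2 and KO 3 while another is not, and Traf2 is below background in KO 3.

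Among the anti-death Bcl2 proteins, which hold Bax and Bak1 in check, Mcl1 divided the arrays along their pairs. Mcl1, a short-lived guardian of neural progenitors, gave 2111, 1194 and 1097 in KO replicates 1, 2 and 3, against 1902 in the WT array. KO replicates 2 and 3 were low, and KO replicate 1 was slightly above WT. The mean log2 difference of -0.43 (SE 0.43) was made of 0.15, -0.67 and -0.79. Mcl1 was the only 1 of 26 members for which KO replicates 2 and 3 both lay at least 1.5-fold below both WT and KO replicate 1, a pattern seen in 2.5% of all genes. A second Mcl1 probe set gave 1217, 658 and 620.5, against 1159, and another gave 1005, 434 and 408, against 882, with the same split. Its 3 other probe sets, which carry Affymetrix's mark for possible cross-hybridization, did not show it. They gave 1582, 1283 and 1643, against 1476, then 1037, 894 and 1424, against 1046, and 449, 385 and 495, against 414. In these KO replicate 2 was the lowest array, and KO replicate 3 was the highest. The split follows Xist, the 18S signal and the spiked-in controls as well as the replicates, and their part in it was not tested.

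With their brightest probe sets, the other guardians differed less than Mcl1. Bcl2 gave 183, 196 and 239.9 in KO replicates 1, 2 and 3, against 172 in the WT array, all higher, with a log2 difference of 0.23 (SE 0.32). Bcl2l1, which encodes the Bcl-xL that protects young neurons, gave 715, 708 and 496, against 786. All KO arrays were lower, by 0.31 on average (log2 difference -0.31, SE 0.35). Its next probe set gave 427, 336 and 201, against 396, which put KO replicate 1 above WT, and KO replicate 3 was lowest with both. Bcl2l2 (Bcl-w) gave 577, 721 and 507, against 580.2, and the WT array lay within the KO range. A dim Bcl2l2 probe set, left out by the filter, gave 28.9, 97.2 and 143, against 7.70. It exceeded background in all 3 KO arrays and not in the WT array, and its KO mean was at least 2.03-fold higher than the WT background of 30.5, which KO replicate 1 did not reach. The other 2 Bcl2l2 probe sets exceeded background in KO replicate 1 alone or in no array.

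The mean differences of the pore-forming members Bak1 and Bok had opposite signs, which for the brighter Bak1 probe set depended on KO replicate 3. Bak1, which opens the mitochondrial outer membrane, gave 576, 446 and 152 in KO replicates 1, 2 and 3, against 469 in the WT array. The mean log2 difference of -0.44 (SE 0.66) rested on KO replicate 3 and was 0.11 without it. The other probe set gave 205, 165 and 25.9, against 310.4, lower in every KO array, by log2 differences of -0.57 and -0.86 in KO replicates 1 and 2. In KO replicate 3 it was at background, which bounds the difference at -1.67 or lower. This dimmer probe set carries Affymetrix's mark for a sequence shared by several transcripts. The SD of the brighter Bak1 probe set over the KO arrays was at percentile 98.5 of all genes. Bok, a relative of Bax and Bak1 found mostly at the endoplasmic reticulum, gave 387, 444 and 503, against 344. It was higher in all KO arrays, with a log2 difference of 0.35 (SE 0.32).

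Among BH3-only proteins, the damage sensors of the family, the WT array lay inside the KO range for all 4 that passed the filter, read by their brightest probe sets. Further probe sets of Bad, Bid and Bcl2l11 lay on 1 side of WT. Bbc3 (Puma), a p53 target that drives the death of neural progenitors after DNA damage, gave 346, 269.5 and 209.7 in KO replicates 1, 2 and 3, against 251 in the WT array. Its log2 difference was 0.098 (SE 0.36), and KO replicate 3 lay below WT. Bcl2l11 (Bim), induced when growth factors are withdrawn, gave 420.0, 564 and 643, against 490.1, with a mean log2 difference of 0.12 (SE 0.35). The 3 other probe sets above background in all arrays differed by 0.056 to 0.46. The dimmest of these gave 81.9, 63.8 and 125, against 59.4, higher in all KO arrays. Under quantile normalization KO replicate 2 lay below WT with that probe set, at -0.089. Bid, the link from caspase 8 to mitochondria, gave 285, 267 and 141, against 268, with KO replicate 3 apart from the other arrays. Its second probe set was above background only in the WT array (90.1). There the KO signals of 10.4, 39.7 and 38.3 were at background in each array, so the difference is known only as a bound, with the WT array at least 1.79-fold higher. Bad, controlled by survival kinases, gave 430.2, 682 and 749.6, against 580.1, on both sides of WT. Its second probe set gave 310.5, 284 and 269, against 177, higher in all KO arrays. That log2 difference was 0.66 (SE 0.32, limma unadjusted p = 0.078, adjusted p = 0.999 over 12228 probe sets). Bik and Bmf were at background in all arrays, with signals of 1.63 to 21.6 in the KO arrays and 8.37 to 12.9 in the WT array.

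Of the caspases listed here, only Casp2 and Casp6 passed the filter. Casp2, an initiator that responds to DNA damage and spindle errors, gave 647, 615 and 439 in KO replicates 1, 2 and 3, against 540.2 in the WT array, on both sides of WT. Casp6, an executioner studied in axon loss, gave 241, 519 and 448, against 317. KO replicate 1 was the lowest array and KO replicates 2 and 3 the highest, as for Tradd, and the log2 difference was 0.26 (SE 0.45). Casp9, the initiator of the mitochondrial route, gave 72.6, 73.5 and 73.3, against 84.5. The KO arrays were close together and below WT, but the signal was at background in KO replicate 3. Casp8, the initiator at death receptors, gave 72.8, 114 and 37.4, against 72.9, at background in KO replicate 3 too. Casp1, which activates interleukin 1 beta, gave 43.9, 54.1 and 11.7, against 9.88. It was above background in KO replicates 1 and 2 and not in KO replicate 3 or WT. Casp12, an inflammatory caspase linked to the endoplasmic reticulum, exceeded background with 1 of its 2 probe sets in KO replicate 1 (42.7) and with the other in the same array (26.2), and in no other array.

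Inhibitors of apoptosis, which bind caspases or tag their partners with ubiquitin, were level or slightly higher in the KO arrays with their bright probe sets. Birc2 (cIAP1), a ubiquitin ligase of the TNF receptor complex, gave 596, 603 and 699 in KO replicates 1, 2 and 3, against 513 in the WT array. All KO arrays were higher, and the log2 difference of 0.29 (SE 0.31) exceeded their range of 0.23. Xiap, the X-linked inhibitor that blocks caspases directly, gave 1412, 1658 and 1553, against 1414, so KO replicate 1 equalled WT to within 1%. Its second bright probe set gave 386, 421 and 437, against 352, higher in all KO arrays by a mean of 0.22 on the log2 scale. The 4 other Xiap probe sets did not exceed background in KO replicate 3. Of these, 1 gave 54.3 and 83.0 in KO replicates 1 and 2, against 112 in the WT array, and another gave 47.6 and 71.6, against 75.5. The other 2 gave 36.0 and 96.4, against 35.9, and 44.2 and 110.7, against 39.98. So 2 of the dim probe sets were lower in KO replicates 1 and 2 and 2 were higher. Birc3 (cIAP2) exceeded background only in KO replicate 1 (37.5) with 1 probe set and in no array with the other.

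The 5 proteins that leave mitochondria once the membrane opens were all above background with their brightest probe sets. With these, Aifm1 and Htra2 were lower in all KO arrays, as were 20.6% of all genes, and a second Htra2 probe set was higher. Cycs, cytochrome c, which assembles the apoptosome with Apaf1 and also carries electrons in respiration, gave 10351, 15793 and 18149 in KO replicates 1, 2 and 3, against 11667 in the WT array. KO replicates 2 and 3 were high, and KO replicate 1 was below WT. The log2 difference of 0.30 (SE 0.39) was -0.036 with quantile normalization, which set the differences of the single KO arrays at -0.0049, -0.036 and -0.067. Its other probe sets gave 8179, 12460.0 and 15886, against 9529.5, and 3842, 5051 and 5795, against 4564, in the same order of arrays. Under quantile normalization they kept that order with smaller differences, -0.076, 0.083 and 0.18 and, for the dimmer, -0.24, 0.11 and 0.18. The direction of Cycs thus depended on the scaling and the probe set. Diablo (Smac), which displaces inhibitors from caspases, gave 1714, 2123 and 2139.6, against 1792. Its second probe set gave 57.4, 243 and 285, against 86.4, with the same division of the arrays. Aifm1, an X-linked flavoprotein of the respiratory chain that can enter the nucleus in dying cells, gave 729.6, 529.5 and 579.8, against 753. All KO arrays were lower, KO replicate 1 by only 0.045 on the log2 scale, and the mean log2 difference was -0.30 (SE 0.33). Endog, a mitochondrial nuclease, gave 271, 178 and 489, against 325, on both sides of WT.

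Htra2 (Omi), a mitochondrial protease that cleaves inhibitors of apoptosis, had 2 probe sets that pointed in opposite directions. The brighter gave 304, 287 and 285 in KO replicates 1, 2 and 3, against 362 in the WT array. All KO arrays were lower, with a log2 difference of -0.30 (SE 0.30) and a KO SD at percentile 2.9 of all genes. The other gave 69.0, 120.3 and 196, against 34.4, all higher, with a log2 difference of 1.45 (SE 0.52, limma unadjusted p = 0.028, adjusted p = 0.999 over 12228 probe sets). It was the only 1 of 46 kept member probe sets with an unadjusted p under 0.05, against 2.51% of all kept probe sets. The 34.4 in the WT array was just above the background of 30.5 there. The background was 21.3, 39.99 and 87.8 in KO replicates 1, 2 and 3, and its part in this difference was not tested. Both probe sets carry Affymetrix's mark for a sequence shared by several transcripts.

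**Figure D3:**
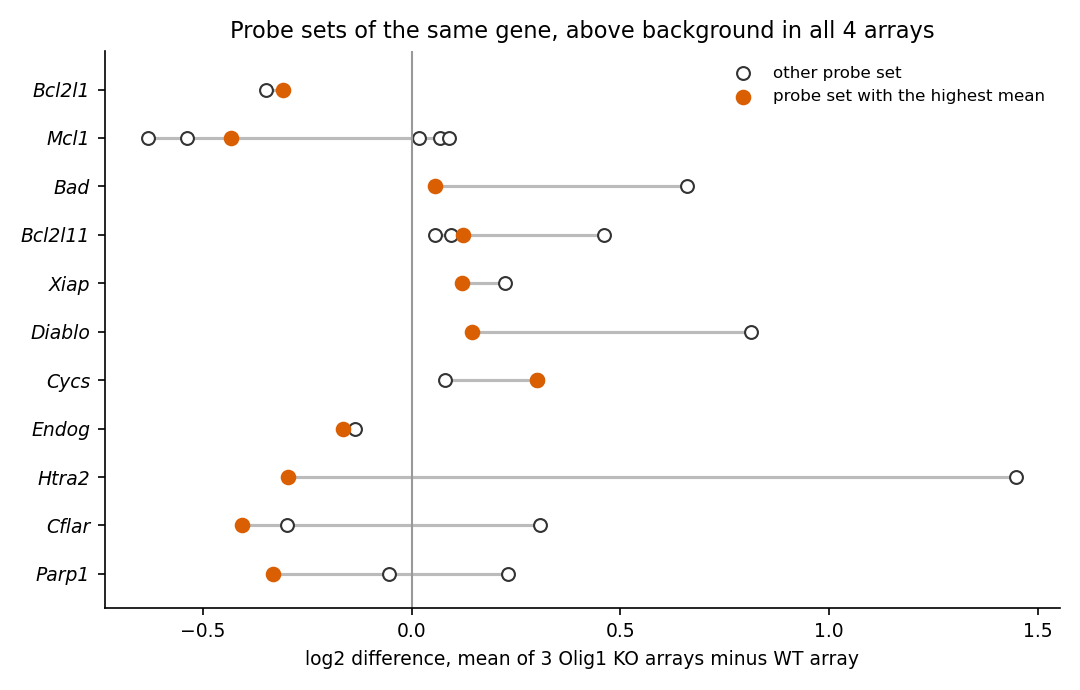
Log2 difference (mean of 3 Olig1 KO arrays minus the WT array) of every probe set above background in all 4 arrays, for the 11 cell death genes with at least 2 such probe sets, with the probe set of highest mean filled. The probe sets lie on 1 side of 0 for 7 genes and on both sides for Mcl1, Htra2, Cflar and Parp1.

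Probe sets of the same gene often disagreed. Of the 11 members with at least 2 probe sets above background in all arrays, 7 had the same sign in all of them (63.6%), against 51.4% of 2903 such genes overall. In the nucleus, Parp1, the poly(ADP-ribose) polymerase that marks DNA breaks and is cut by caspases, was another split case. Its brightest probe set gave 1248, 1162 and 856 in KO replicates 1, 2 and 3, against 1359 in the WT array, all lower (log2 difference -0.33, SE 0.35). A second gave 636, 674 and 700.03, against 568, all higher (0.23, SE 0.32), and the last lay on both sides of WT. The second carries Affymetrix's mark for a sequence shared by several transcripts. Dffa, the inhibitor and chaperone of the caspase-activated DNase, gave 353, 369 and 503, against 370.3, with only KO replicate 3 clearly apart. Dffb, the DNase itself, was left out by the filter. Its brighter probe set gave 65.2, 64.9 and 98.2, against 102, lower in all KO arrays and above background in each. The log2 difference of KO replicate 3 was only -0.052, and 0.0023 with each array centred on its median. The other Dffb probe set gave 93.9, 59.5 and 65.4, against 75.4. There KO replicate 1 was above WT and KO replicate 3 was at background.

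**Figure D4:**
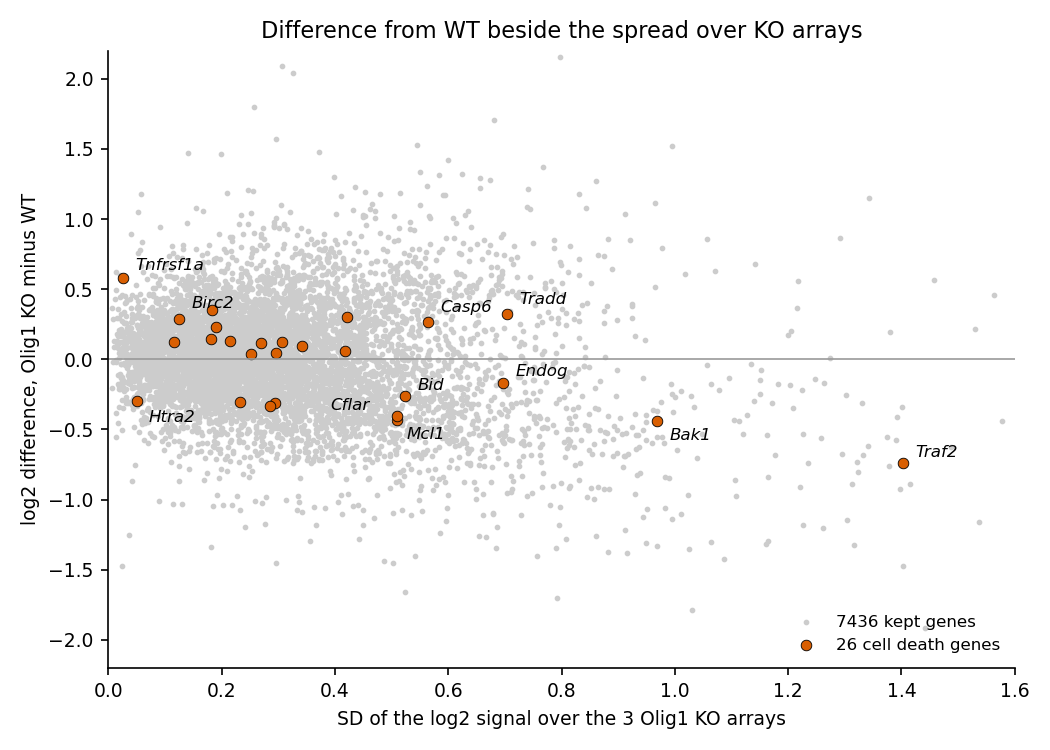
Log2 difference (mean of 3 Olig1 KO arrays minus the WT array) against the SD of the log2 signal over the 3 KO arrays, for 7436 kept genes in grey, of which 12 lie outside the axes, and the 26 cell death genes in orange. Tnfrsf1a combines a difference of 0.58 with an SD of 0.025, whereas Traf2, at background in KO 3, and Bak1 have the widest spread among the cell death genes.

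Spread over the KO arrays was ordinary for the members as a whole, with a median SD of 0.29 on the log2 scale, against 0.27 over all genes. Several members split along the array pairs, as did many genes outside the list. KO replicates 2 and 3 both lay below WT and KO replicate 1 for 7 of the 26 members, near the 25.8% of all genes. They lay above both for 10 of the 26, against 24.8% of all genes. By at least 1.5-fold they did so for Mcl1 (below, 2.5% of all genes) and Tradd (above, 2.38% of all genes) alone. That is 1 of 26 each way, too few to set the members apart from all genes. The sex-linked genes, the 18S signal and the spiked-in controls divide the arrays in the same way. The beta-actin ratio sets KO replicate 3 apart from the other arrays, whereas the Gapdh ratio was highest in KO replicate 2. The part of these measures in the patterns was not tested.

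Further genes of the pathway were taken from a list of apoptosis and necroptosis genes outside the members. Of 60 measured, 44 passed the filter, and 0 passed the test, with 0 at an unadjusted p under 0.05. All KO arrays lay above WT for 9 (20.5%) and below it for 10 (22.7%), against 23.2% and 20.6% of all genes, and the median log2 difference was -0.056. The 6 with the largest moderated t were Dapk1, Apaf1, Fas, Fastk, Dapk3 and Pidd1. Dapk1, a death-associated kinase, gave 612, 704 and 618 in KO replicates 1, 2 and 3, against 407 in the WT array, with a log2 difference of 0.64 (SE 0.31). It was higher in all KO arrays, but its other probe set gave 231, 624 and 506, against 260, with KO replicate 1 below WT. Apaf1, the scaffold onto which cytochrome c loads caspase 9, differed by 0.59 (SE 0.31) and Pidd1, which activates caspase 2, by 0.47 (SE 0.32), both higher in every KO array. A second Apaf1 probe set gave 278, 212 and 63.3, against 215, with only KO replicate 1 above WT and KO replicate 3 at background. The death receptor Fas gave 129, 291 and 207, against 109, higher in all KO arrays. Fastk, named as a Fas-activated kinase, gave 379.7, 232 and 205, against 425, and Dapk3, a relative of Dapk1, gave 226, 162 and 114, against 261. Both were lower in all KO arrays, with log2 differences of -0.66 (SE 0.40) and -0.65 (SE 0.41). The limma adjusted p was 0.99997 for each of the 6.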

How the data were processed

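The table as deposited gives an unlogged intensity, the MAS5 signal, for every probe set of every array, with the software named per the submitters' processing notes. Neither its version nor its scaling is given in the sources used here. Values were compared as log2(signal + 14.4), where the pseudocount is 0.1 times the median of all values, so fold changes of dim genes are understated. The trimmed means of the arrays differed by less than 1% (500.2 in each), and no further scaling was applied. Biotin-labelled cRNA was made from 6 ug of total RNA, per the labels' protocols. Precision is limited by having 4 arrays.

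Platform symbols were updated through gene identifiers in RefSeq's GRCm38.p6 table. Of 22690 probe sets, 64 were controls and, of the others, 20380 had 1 symbol, 691 several and 1555 none. For each of 12393 genes, the probe set brightest on average in log2 stood for the gene. The 40% with the lowest mean were dropped, leaving 7436. KO and WT were compared with limma (lmFit and eBayes, limma 3.58.1, R 4.3.3), two-sided, Benjamini-Hochberg adjusted over all kept genes. The KO arrays alone gave the spread (2 residual and 5.23 prior degrees of freedom), with the lone WT array taken to vary as they do. The script was tested on simulated data. Single probe sets were fitted in the same way over 12228 kept probe sets. All member genes are named, with up to 6 further pathway genes by moderated t. The members, lists and settings were chosen with earlier results of these data known.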

Additional observations from a re-analysis of the deposited data

How the results depend on the processing

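No member had an adjusted p under 0.05 in limma under any of the 13 alternatives run. The count at an unadjusted p under 0.05 was 0, except 1 with the mean of all probe sets of a gene (Bid, log2 difference -0.80) and 1 with every probe set as a row of its own (Htra2). Members higher in all KO arrays numbered 7 with no filter (20%, against 25.2% of all genes), and 4 in the main fit. With every probe set as a row of its own, 8 of 46 member probe sets were higher (17.4%, against 22.6% of all probe sets). When 1 KO array was left out, 5 to 11 members were higher, the 5 (19.2%, against 28.2% of all genes) without KO replicate 2. Members lower in all KO arrays numbered 6 to 7 with 1 KO array left out, against 4. The 6 were 23.1% of members, against 26% of all genes without KO replicate 2 and 28.6% without KO replicate 3. The largest counts, 11 (42.3%, against 35.7% of all genes) and 7 (26.9%, against 34.9%), came without KO replicate 1, and 7 were higher without KO replicate 3 (26.9%, against 34.2%). The median over members was 0.058 to 0.083 with 1 KO array left out, within the spread of the KO arrays. With the array pair as a block it was -0.026, which is by construction the median of KO replicate 1 against WT.

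With the mean of all probe sets, the sign turned for Xiap (-0.024), Htra2 (0.58), Cflar (0.052) and Tradd (-0.092), and with quantile normalization for Cycs (-0.036). The array pair as a block leaves KO replicate 1 and WT to carry the difference. It turned the sign for 13 of 26 members: Bcl2l2 (-0.0068), Mcl1 (0.15), Bak1 (0.29), Bad (-0.42), Bid (0.084), Bcl2l11 (-0.22), Casp6 (-0.38), Xiap (-0.0018), Diablo (-0.064), Cycs (-0.17), Tradd (-0.48), Traf2 (0.088) and Dffa (-0.067). With 1 KO array left out, signs turned for Bbc3 (-0.074 to 0.27), Casp2 (-0.055 to 0.22), Bcl2l2 (-0.098 to 0.15), Bad (-0.096 to 0.29), Endog (-0.53 to 0.16), Bak1 (-0.80 to 0.11), Bid (-0.43 to 0.040), Bcl2l11 (-0.0092 to 0.29), Traf2 (-1.15 to 0.070) and Dffa (-0.036 to 0.21). The difference of Tnfrsf1a was 0.56 to 0.58, a narrow range that its close KO values fix beforehand. The WT array was in every fit, so this range says nothing of how that array would vary. The labels do not number the samples across the groups, so the array pair was the only block fitted. Probe sets near background limit Casp8, Casp9, Casp1, Casp12, Birc3 and Tnfrsf10b.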

Other observations

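Bnip3l, which encodes the mitophagy receptor Nix, a distant relative of the BH3-only proteins, was read by 3 probe sets that the annotation assigns to it and to its pseudogene together. The first gave 2387, 4379 and 5838 in KO replicates 1, 2 and 3, against 3344 in the WT array. The second gave 1368, 1614 and 2498, against 1931, and the third gave 629, 764 and 1036, against 1023. KO replicate 1 was the lowest array with all 3 and KO replicate 3 the highest, so the WT array lay inside the KO range each time.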
